A study of Mus musculus with 40 samples.

Results

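The genes that set the heart apart from the kidney and from the lung were examined in mice at 4 weeks of age. The 5 heart arrays of that age were compared with both the 5 kidney arrays and the 5 lung arrays, which together make 15 of the 40 arrays of the series. All 3 groups were whole organs of male C57BL/6 mice aged 4 weeks, with no allele or treatment given, and the labels class each of the 3 as slowly proliferating. Total RNA was extracted with Trizol and hybridised, 1 sample to an array, to the Affymetrix mouse 430 2.0 array. The design text gives 5 animals each but names kidney and lung only, so p-values for heart measure the spread between these 5 samples, which may in part be technical.

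Cardiac muscle contracts when calcium, released from the sarcoplasmic reticulum through ryanodine receptors, binds troponin on the thin filament and lets myosin heads pull on actin. The cells are joined end to end at intercalated discs, which carry force and current, and they make nearly all their ATP in mitochondria, chiefly from fatty acids. In mice the ventricles hold alpha myosin (Myh6) after birth, and the atria add their own myosin light chains (Myl4 and Myl7), sarcolipin and most of the atrial natriuretic peptide. A whole heart also holds endothelium, fibroblasts, pericytes and macrophages, and fewer cells of a type cannot be told apart from less RNA per cell in such samples.

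The heart label was checked first against 9 markers of heart muscle. Myl2, the ventricular regulatory light chain, had signals of 61887, 59407, 44172, 47528 and 63459 on the heart arrays, against 61.5, 161.5, 62.6, 131.9 and 83.5 on the kidney arrays and 40.4, 91.4, 21.5, 32.9 and 98.9 on the lung arrays. Every heart array lay far above every array of the other organs, and kidney and lung overlapped. Its difference on the log2(signal + 16) scale was 8.96 from kidney and 9.69 from lung (SE 0.31, n = 5 each; limma, adjusted p = 9.7e-13 and 4.7e-13). Tnnt2, cardiac troponin T, read 53537, 61224, 50111, 52433 and 59726 in heart, 25.0, 1.1, 10.7, 2.7 and 2.0 in kidney, and 1643, 759, 1749, 1531 and 1427 in lung. The heart arrays did not overlap with either organ, and the lung arrays in turn lay above all kidney arrays. Ryr2, the cardiac calcium release channel, read 12962, 11990, 10281, 10138 and 11523 in heart, 4.4, 2.9, 28, 23.4 and 2.4 in kidney, and 266.9, 55.9, 227.2, 200.2 and 141.2 in lung. Myh6, Tnni3, Actc1, Pln, Nppa and Myl7 were likewise called higher in heart than in both organs, so the label held. The defining genes of kidney were near background in heart, with Umod (uromodulin) at 2.9 to 59.5, against 24451 to 31815 in kidney and 4.1 to 56.0 in lung.

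**Figure D1:**
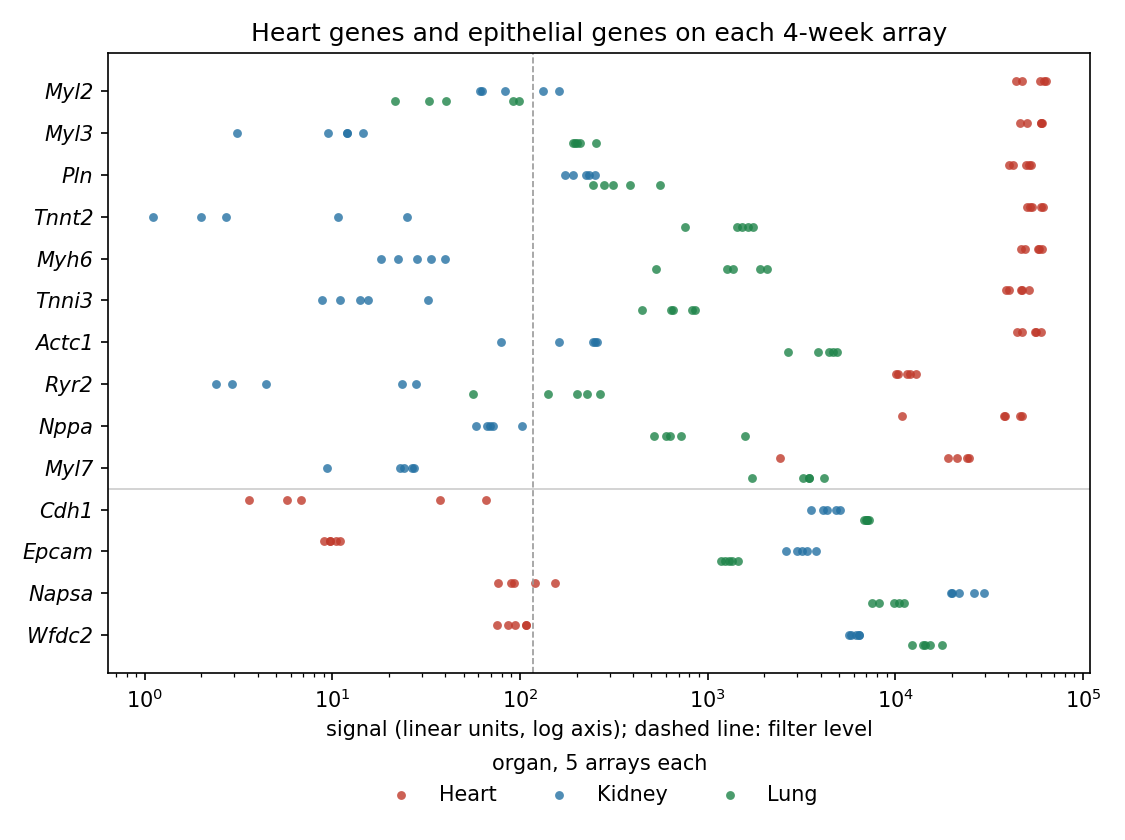
Signal of 10 heart muscle genes (upper rows) and 4 epithelial genes (lower rows) on each 4-week array, on a log axis. Each point is 1 array of heart, kidney or lung (5 each), and the dashed line is the level of 117.9 used to leave out dim genes. The Myl2 points of heart lie at 44172 or above, and 1 heart array lies apart from the other 4 for Nppa and Myl7.

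Some arrays stood apart in sets of genes. Heart replicate 2 was low for atrial genes, as shown with the atrial list. Heart replicate 3 read 1656.8 for Scgb1a1, the club cell secretory protein, where the other 4 hearts read 8.8 to 24.4 and the lungs 25856 to 41466. It also read 1013.2 for Sftpc, surfactant protein C, where the other 4 hearts read 116.1 to 216.4 and the lungs 20101 to 35377. Without replicate 3, Scgb1a1 differed by −0.36 from kidney and −10 from lung, against 0.78 and −8.91 with it, and Sftpc by 0.13 and −7.21, against 0.61 and −6.72 with it. Neither was called against kidney either way. Heart replicate 4 read 342.5 for Ucp1, the uncoupling protein of brown fat, where the other hearts read 13.5 to 40.8. Ucp1 was called against neither organ, with replicate 4 (−1.86 and 0.58) or without it (−2.48 and −0.03). Lung replicate 2 had the lowest lung signal for several heart muscle genes, with 107.1 for Ckmt2 where the other lungs read 251.3 to 346.4. Without it the smaller differences were 7.02 for Ckmt2, 6.28 for Myoz2, 5.48 for Mb, 5.2 for Cox6a2, 5.11 for Tnnt2 and 5.05 for Myh6. With it they were 7.28, 6.41, 5.81, 5.36, 5.32 and 5.37. Poly-A control probe sets averaged 12.46 on the log2 scale on heart replicate 1 and 11.17 to 11.45 on the other hearts. They averaged 11.67 on kidney replicate 3, which also had the lowest median signal (133), and 10.43 to 10.79 on the other kidneys. On lung replicate 1 they averaged 11.04, and on the other lungs 9.86 to 9.90. The 3′ over 5′ log2 difference of actin was 0.44 to 0.67 in heart, 1.43 on kidney replicate 1 and 0.61 to 0.96 on the other kidneys, and 0.36 to 0.54 in lung. The part of the control probe sets and actin in the results was not tested.

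Across the array, 14462 genes passed the filter on dim signals (highest of the 3 organ means at least 117.9). A gene was called where its adjusted p was under 0.05, and counted as a heart gene where it was called in the same direction against each organ. Heart differed from kidney in 8797 genes (60.8% of those tested), of which 4340 were higher and 4457 lower. Heart differed from lung in 9354 genes (64.7%), with 3569 higher and 5785 lower. The median difference of all genes was −0.01 from kidney and −0.18 from lung, so 38.2% of the calls against lung were higher in heart. With each array centred on its own median that share was 53.5%, and with quantile normalization 45.2%, with medians of 0.06 and −0.06. In all, 2263 genes (15.6%) were higher in heart than in both organs and 2792 (19.3%) lower. At least 2-fold differences from both were found for 905 genes higher (6.26%) and 980 lower (6.78%). The counts of the gene lists below are to be read beside these shares. The lists were chosen with earlier results of these data known, so their counts are no independent test. With the upper- or lower-case letter of the sample descriptions as a block, 6739 genes were called against kidney, 1861 were higher than both organs and 2154 lower, and 827 of the 905 and 814 of the 980 stayed called at 2-fold. That letter is upper case for the kidneys and heart replicate 1 and lower case for the lungs and the other hearts, so the block leaves 1 heart of the kidneys' letter. A further 1028 genes were above kidney and below lung, and 434 were below kidney and above lung.

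The genes highest in heart stood much farther from the other organs than the genes lowest in it. The smaller of the 2 differences, meaning the one nearer 0, was at least 4 on the log2 scale for 110 higher genes but at most −4 for 38 lower genes. At 6 the counts were 26 and 2. Of the 905 genes, 875 had every heart array above every kidney and lung array, and 842 of the 980 had every heart array below. Both sets were chosen by their differences on these same arrays, which favours such a separation. The share over all genes tested is not given here. In 184 of the 905 both the kidney and the lung mean were under the filter level, and in 469 of the 980 the heart mean was, so those differences rest on dim signals in those organs. Of the 905 genes, 31.4% were also called higher in lung than in kidney and 34.8% lower, against 36.1% and 28% of all genes tested.

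**Figure D2:**
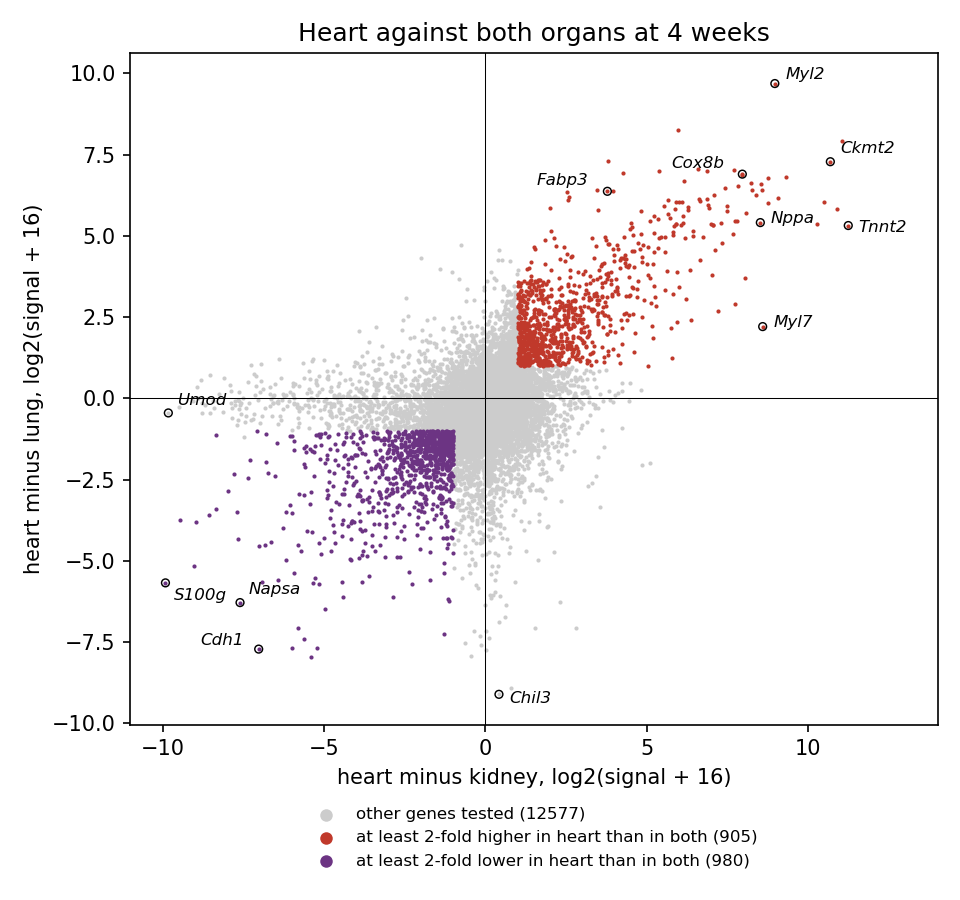
Log2 difference of heart from kidney (x axis) and of heart from lung (y axis) for each of the 14462 genes tested, from signals with 16 added. Red points are the 905 genes at least 2-fold higher in heart than in both organs, purple points the 980 at least 2-fold lower, and circles mark named genes. The red points reach 11.24 for Tnnt2 on the x axis and 9.69 for Myl2 on the y axis.

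The 20 genes with the largest smaller difference were nearly all of muscle. Myl2 led, followed by Myl3, the ventricular essential light chain, with 11.05 from kidney and 7.93 from lung. Ckmt2, the sarcomeric mitochondrial creatine kinase, and Pln, phospholamban, which restrains the calcium pump, followed with smaller differences of 7.28 and 7.04. Cox8b, a muscle form of a cytochrome c oxidase subunit, had 6.90, and Trdn, triadin of the calcium release complex, had 6.88. The next were Dhrs7c, a sarcoplasmic reticulum dehydrogenase, at 6.86, Actn2, the Z-disc alpha-actinin, at 6.81, and Ttn, the giant spring titin, at 6.79. Txlnb (6.61), Smyd1, a muscle methyltransferase (6.61), Rpl3l, a muscle form of ribosomal protein L3 (6.57), and Ckm, muscle creatine kinase (6.55) came after them. Hspb7, a small heat shock protein, and Myoz2, a calcineurin-binding Z-disc protein, had 6.47 and 6.4. Casq2, the calcium store protein calsequestrin, had 6.4, Smpx 6.27, Ldb3 of the Z-disc 6.25, Lmod2, which lengthens thin filaments, 6.16, and Mypn, myopalladin, 6.15. The ranking took only genes with every heart array above every array of both organs.

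The sequence just upstream of some genes higher in heart is shown because it holds letters that heart muscle transcription factors are known to bind. Promoters were taken from RefSeq (GRCm38.p6), which had an entry for 91 of the 110 genes with a smaller difference of at least 4. In the 250 bases before the start, both strands were searched for a MEF2 box, a CArG box (bound by serum response factor), GATAA (GATA factors), CATTCC (TEAD factors), CAGCTG and CAGGTG (E-boxes), AAGGTCA (estrogen-related receptors) and TATAAA. A MEF2 box can overlap a TATAAA match. The 6 below are not all among the 91, as Myl7 had a smaller difference of 2.21. They were picked because they hold such letters, so they are examples and not a sample. They lie at chr9:110763528-110763677 (Myl3, plus strand), chr2:114052876-114053025 (Actc1, minus), chr11:5898783-5898932 (Myl7, minus), chr4:148000572-148000721 (Nppa, plus), chr3:123034988-123035137 (Myoz2, minus) and chr3:102086265-102086414 (Casq2, plus). Each is the 150 bases before the start, with the motif letters in capitals:
Myl3: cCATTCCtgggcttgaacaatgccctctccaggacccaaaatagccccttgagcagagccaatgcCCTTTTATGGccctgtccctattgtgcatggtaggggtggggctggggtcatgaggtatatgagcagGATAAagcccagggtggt
Actc1: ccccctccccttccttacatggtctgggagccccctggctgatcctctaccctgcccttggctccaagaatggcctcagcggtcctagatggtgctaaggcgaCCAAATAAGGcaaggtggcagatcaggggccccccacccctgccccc
Myl7: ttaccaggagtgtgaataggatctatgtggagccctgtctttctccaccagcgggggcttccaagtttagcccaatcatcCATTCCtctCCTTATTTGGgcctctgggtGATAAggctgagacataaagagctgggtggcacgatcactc
Nppa: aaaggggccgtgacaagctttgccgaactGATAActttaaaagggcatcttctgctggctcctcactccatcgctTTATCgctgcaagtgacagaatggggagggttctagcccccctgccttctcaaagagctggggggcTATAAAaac
Myoz2: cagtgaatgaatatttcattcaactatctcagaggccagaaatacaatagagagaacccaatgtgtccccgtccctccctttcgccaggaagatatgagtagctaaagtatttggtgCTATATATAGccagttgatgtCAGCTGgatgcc
Casq2: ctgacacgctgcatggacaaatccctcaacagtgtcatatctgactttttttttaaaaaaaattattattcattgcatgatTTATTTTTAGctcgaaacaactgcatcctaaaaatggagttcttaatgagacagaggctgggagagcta

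In Myl3 the capitals mark CATTCC, a CArG box 85 to 76 bases before the start and GATAA at 18 to 14. Actc1 has a CArG box at 47 to 38, and Myl7 has CATTCC, a CArG box and GATAA within 70 bases of the start. Nppa has GATAA once on each strand and TATAAA at 9 to 4. Myoz2 has a MEF2 box at 33 to 24 and CAGCTG at 12 to 7, and Casq2 a MEF2 box at 69 to 60. Among the 91 promoters, 14.3% held a MEF2 box, against 4.95% of the 707 found for the 905 genes and 1.76% of those of all genes tested. A CArG box was in 6.59% of the 91, 1.98% of the 707 and 1.14% of all tested, and GATAA in 34.1%, 18.2% and 15.5%. CAGCTG was in 26.4%, 16.3% and 12.0%, CATTCC in 22%, 11.3% and 11.1%, and TATAAA in 17.6%, 11.2% and 7.66%. AAGGTCA was in 3.30%, 3.96% and 3.08%, and CAGGTG in 19.8%, 17.5% and 16.2%. Among all 27025 promoters of the table the shares were 3.01% for the MEF2 box, 1.40% for the CArG box, 23% for GATAA and 13% for TATAAA, each above that of the genes tested. For GATAA and TATAAA they were also above those of the 707. These are counts of letters and carry no test.

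Of 25 thick and thin filament genes tested, 24 were higher in heart than in both organs, all 24 at least 2-fold, against 6.26% of all genes. The list's median difference was 7.21 from kidney and 5.37 from lung. Myh6, the alpha myosin heavy chain, read 57945, 60582, 46831, 48955 and 58060 in heart, 18.1, 28.3, 33.5, 39.7 and 22.3 in kidney, and 1904, 533.0, 2076, 1372 and 1272 in lung. Kidney arrays were at background, lung arrays were between, and lung exceeded kidney by 4.91 (adjusted p = 3.7e-10). Tnni3, cardiac troponin I, read 46670, 51348, 38766, 40552 and 47416 in heart, against 8.8 to 32.3 in kidney and 444.6 to 855.1 in lung. Actc1, cardiac alpha-actin, read 55441, 59665, 44490, 47520 and 56353 in heart, against 78.7 to 255.9 in kidney and 2697 to 4906 in lung. In 19 of the 25 genes lung was called above kidney, against 36.1% of all genes tested, and in 1 below. Myl3 was among the 19, at 191.8 to 255.1 in lung and 3.1 to 14.5 in kidney, whereas Myl2 was not, as its lung and kidney signals overlapped. Tpm2, a tropomyosin of slow and smooth muscle, was the only member tested that was not called, with differences of 0.74 and 0.13. With centred arrays it was called higher (0.37 for the smaller difference). Myh7, the beta myosin heavy chain of fetal hearts, had the smallest called difference from lung, 1.33 (not called with all 40 arrays in the fit), with 727.8 to 875.1 in heart, 30.9 to 71.0 on the kidney arrays and 235.6 to 399.3 on the lung arrays.

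All 36 genes of the Z-disc, the costamere and sarcomere upkeep were called higher in heart, 33 of them at least 2-fold. Their medians were 5.32 from kidney and 4.87 from lung. Actn2 read 25924, 27370, 24246, 22849 and 27475 in heart, between 12.5 and 40.9 in kidney and between 137.7 and 300.0 in lung. Besides the genes already named, Trim54, a microtubule-linked ubiquitin ligase, Hspb6, a small heat shock protein, and Pdlim5, a Z-disc adaptor, had smaller differences of 6.13, 5.90 and 5.75. At the other end stood Pdlim3 (0.82), Dmd, dystrophin (0.88), Myoz1 (0.99) and Nebl, nebulette (1.01), each still called. Myoz1 lost its call with the 1- and 8-week arrays in the fit and with the letter block (0.87). Nebl averaged 9292 in heart, 271 in kidney and 4576 in lung, so it set heart apart mainly from kidney.

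Of 22 calcium handling genes, 19 were higher, 18 of them at least 2-fold, with medians of 4.47 from kidney and 2.76 from lung. Pln read 52922, 51586, 40273, 42208 and 49762 in heart, against 173.1 to 249.6 in kidney and 245.6 to 558.0 in lung. Casq2 read 19553, 20095, 17742, 18304 and 19347 in heart, 16.1 to 62.7 on the kidney arrays and 109.0 to 303.3 on the lung arrays. In both genes the heart arrays were close to each other and far above the rest. Atp2a2, the calcium pump that Pln restrains, was higher by 3.80 and 3.78, with 41372 to 53446 in heart, between 2822 and 4190 in kidney and between 2112 and 4673 in lung. Its form of blood cells and epithelia, Atp2a3, differed by 0.08 from kidney (not called) and by −2.25 from lung. Srl (sarcalumenin), Hrc, which binds calcium in the store, and Tmem38a, a potassium channel of its membrane, had smaller differences of 5.86, 5.62 and 4.55. Jsrp1, of the skeletal muscle triad, was lower in heart than in both organs (−0.73 and −1.19), a call that was lost without heart replicate 1, heart replicate 5 or kidney replicate 2 (−0.61 to −0.55 for the smaller difference) and with all 40 arrays in the fit. Fkbp1b differed by 0.28 and −1.18.

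The sodium-calcium exchanger gene Slc8a1 gave a different answer by probe set. The brightest over all 40 arrays, used here, averaged 90.0 in heart, 1837 in kidney and 62.1 in lung. Another averaged 441.7 in heart, 119.8 in kidney and 23.5 in lung and was called higher in heart by 1.83 and 3.71, and none of the others was so called. Among the 905 genes, 444 had other probe sets above the filter, and in 384 at least 1 of them was called higher too, while in 6 at least 1 was called lower. Among the 980 genes the counts were 424, 311 and 5.

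Of 22 ion channel and pump genes of the action potential, 19 were higher, 18 at least 2-fold, with medians of 2.75 from kidney and 2.66 from lung. Fgf13, a sodium channel partner, had the largest smaller difference, 5.94. The subunits of the fast outward current followed, with Kcnip2 at 4.27 and 6.95 and Kcnd2 at 4.07 and 4.72. Abcc9, which pairs with ATP-sensitive potassium channels, had 4.27 and 4.32, and Cacna1g, a T-type calcium channel, 3.36 and 3.21. Fxyd1 (phospholemman), which regulates the sodium pump, had 6.20 and 3.06. Cacna1d, a calcium channel of pacemaker cells, was lower than in both organs (−1.01 and −2.02), and Scn4b lay below kidney (−1.87) and above lung (1.28).

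Intercalated disc genes were higher in 14 of 18, 12 of them at least 2-fold, with medians of 2.96 and 2.51. Gja1, connexin 43 of gap junctions, read 20412, 15944, 19962, 17307 and 16969 in heart, against 211.6 to 464.2 in kidney and 3084 to 5057 in lung. Heart was far above kidney, and every heart array was also above every lung array. Cdh2, N-cadherin, which holds heart muscle cells together, read 6808, 8324, 8107, 7171 and 7459 in heart, 150.7 to 255.6 on the kidney arrays and 287.8 to 708.2 on the lung arrays. Nrap, Popdc2, Bves, Gja3 (connexin 46) and Dsc2 (desmocollin 2) had smaller differences of 5.10, 4.64, 4.52, 4.30 and 3.73. The desmosomal genes Dsp, Dsg2 and Pkp2 had 2.73, 2.54 and 2.30. Vcl, Tjp1, Jup and Ctnnb1, which epithelial or endothelial junctions also use, were not called higher than in both.

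Transcription factors were more mixed, with 19 of 33 higher, 15 at least 2-fold, and medians of 2.01 and 1.59. Nkx2-5, a homeodomain factor of heart development, read 1788, 2296, 2098, 2088 and 2902 in heart, between 111.2 and 239.3 in kidney and between 187.9 and 410.4 in lung. Irx4, a ventricular factor, read 700.1, 640.2, 559.5, 588.5 and 507.6 in heart, against 9.1 to 27.4 in kidney and 7.0 to 38.8 in lung. Tbx20, a T-box factor of the myocardium, read 3200, 2809, 3518, 3106 and 3099 in heart, 20.2 to 64.1 on the kidney arrays and 41.5 to 104.6 on the lung arrays. For these 3 genes no heart array came near an array of the other organs. Smyd1, Hand2 (a basic helix-loop-helix factor), Perm1, Myocd (myocardin) and Gata4 had smaller differences of 6.61, 4.73, 3.78, 3.69 and 2.69. Tbx5, known in heart and in lung development, averaged 807 in heart, 101 in kidney and 1110 in lung and differed from lung by −0.52. Tbx2 (−1.61 and −3.70) was lower in heart than in both, and so was Gata5 (−0.63 and −0.76). The Gata5 call was lost when any of 7 arrays was left out (heart replicates 1, 2 and 3, kidney replicates 1, 2, 4 and 5), at −0.65 to −0.51. It was also lost with quantile normalization, centred arrays, no filter, the letter block or all 40 arrays in the fit.

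Peptides, growth factors and receptors were higher in 8 of 22 and at least 2-fold in 6, against 15.6% and 6.26% of all genes. Their medians were 1.09 and 0.03, the second near that of all genes for lung. Nppb, the B-type natriuretic peptide, read 7549, 7446, 8921, 9367 and 8710 in heart, between 235.0 and 306.3 in kidney and between 208.2 and 284.4 in lung. Corin, the protease that activates atrial natriuretic peptide, read 4448, 4049, 5097, 4470 and 5953 in heart, against 146.8 to 433.2 in kidney and 13.9 to 74.7 in lung. The heart arrays of both genes lay well clear of the other organs. Vegfb, an endothelial growth factor, had a smaller difference of 2.60, Adcy5 of 1.72, Adra1b of 1.28, Fgf16 of 0.89 and Adcy6 of 0.88. Fgf16 lost its call without heart replicate 1 or 3 or kidney replicate 2 or 3 (0.69 to 0.87), and with the letter block. Erbb2 and Igf1r, growth factor receptors, were lower in heart than in both (−1.44 and −0.70 for the smaller difference).

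**Figure D3:**
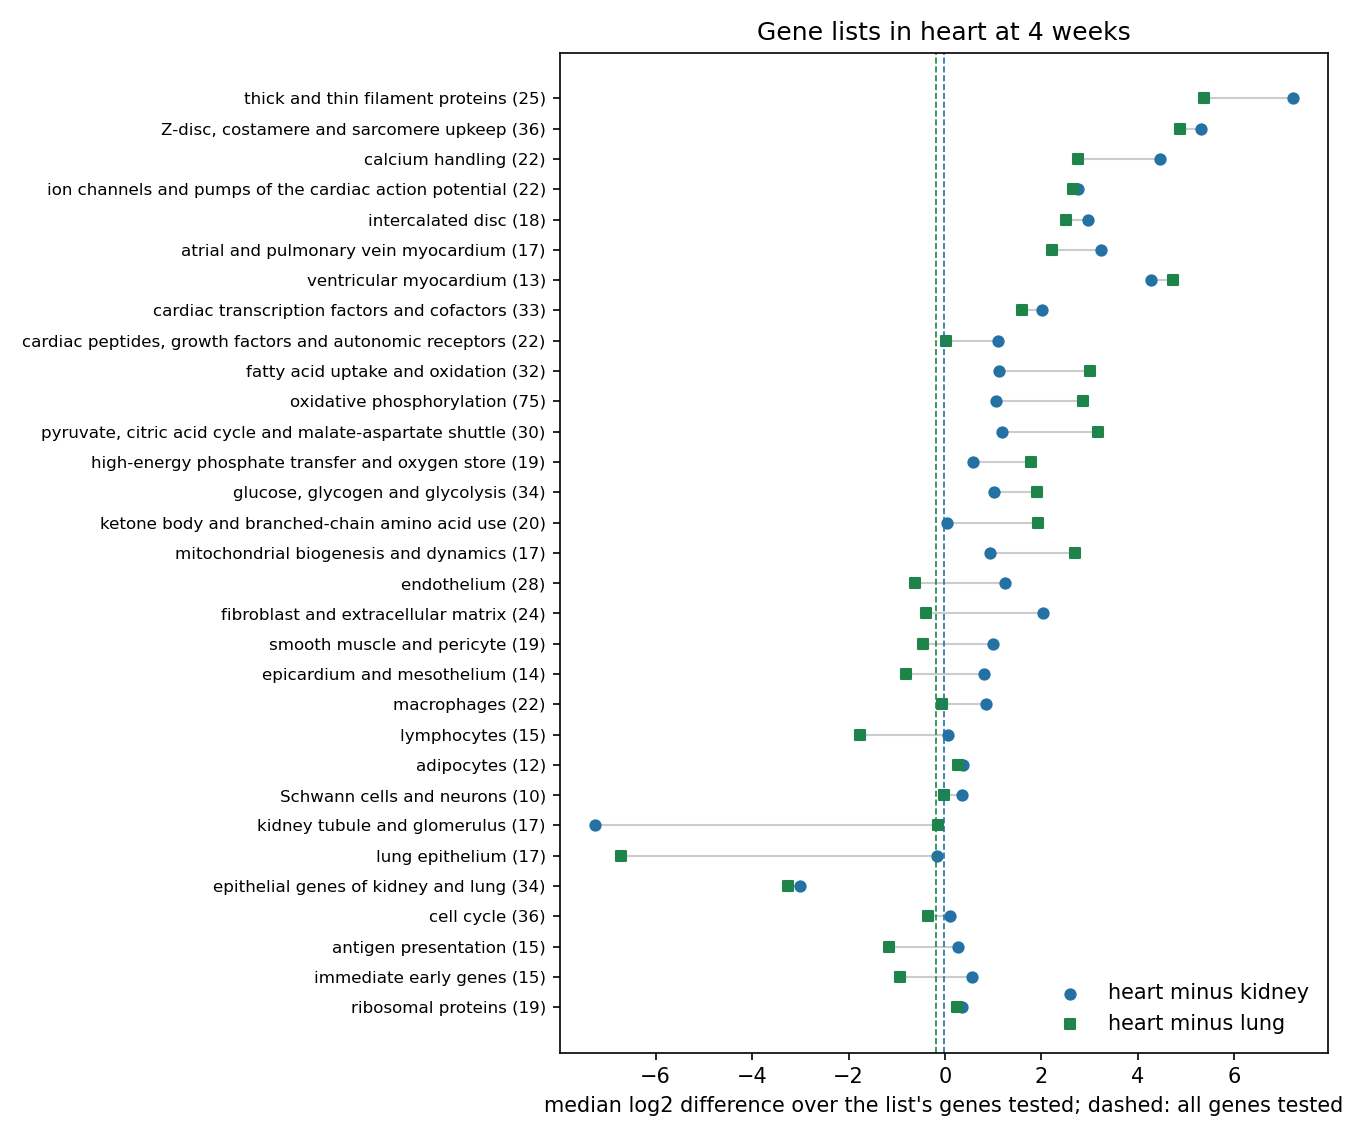
Median log2 difference of heart from kidney (blue circles) and from lung (green squares) for each gene list with at least 10 genes tested, the number tested in brackets. Dashed lines are the medians of all genes tested, −0.01 and −0.18. Thick and thin filament genes are farthest right, at 7.21 and 5.37, and epithelial genes lie at −3.02 and −3.26.

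Atrial and ventricular genes were compared next, as 1 heart array differed from the other 4 in the atrial ones. Of 17 genes of atrial and pulmonary vein muscle, 11 were higher in heart than in both organs, 10 at least 2-fold, with medians of 3.23 and 2.21. Of 13 ventricular genes, 11 were higher, 10 at least 2-fold, with medians of 4.27 and 4.72. Nppa, the atrial natriuretic peptide, read 46509, 10865, 37798, 38488 and 47674 in heart, 58.2 to 102.6 on the kidney arrays and 520.1 to 1591 on the lung arrays. Myl7, the atrial regulatory light chain, read 24031, 2443, 19216, 21423 and 24754 in heart, between 9.3 and 27.1 in kidney and between 1725 and 4155 in lung. Sln, sarcolipin, which acts on the calcium pump in atria, read 12668, 878.3, 9974, 11353 and 13061 in heart, against 5.9 to 36.0 in kidney and 534.3 to 1365 in lung. In all 3 genes replicate 2 was the low heart, and for Myl7 and Sln it lay within the range of the lungs.

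Heart replicate 2 was 13.1-fold lower than the mean of the other 4 hearts for Sln, 10.1-fold for Bmp10 (a ligand of trabecular and atrial muscle), 9.06-fold for Myl7 and 8.72-fold for Myl4, the atrial essential light chain. It was 5.72-fold lower for Mybphl, an atrial filament protein, 4.55-fold for Fgf12 and 3.90-fold for Nppa. In 14 of the 17 atrial genes it was below all other hearts, and in 3 of the 13 ventricular genes, namely Kcnd2, Gja1 and Nppb. The share of all genes tested in which it was the lowest heart was not counted, and replicate 2 was singled out for its atrial values. Its median deviation from the other hearts was −1.05 over the atrial list, 0.15 over the ventricular list and 0.01 over all genes. The share of atrial tissue in each sample is not recorded in the labels, and its part in these values was not tested. Without replicate 2, Sln differed by 8.46 from kidney and 3.64 from lung, against 7.72 and 2.90 with it. Myl7 differed by 9.22 and 2.85 without it, and by 8.59 and 2.21 with it. For Nppa, Myl4, Mybphl, Fgf12 and Cacna1g the smaller difference was 5.80, 3.31, 2.93, 2.92 and 3.36 without it, and 5.41, 2.68, 2.43, 2.48 and 3.21 with it. Bmp10 was called higher without it (1.46 and 2.70, adjusted p = 0.0062 for kidney) and was not called with it (0.79 and 2.03), so the atrial count was 12 without it. The atrial potassium channel genes Kcna5, Kcnj5, Kcnk3 and Kcnj3 were called higher with it, by smaller differences of 3.97, 3.74, 2.35 and 1.73, and Nr2f2, an atrial factor that veins and many other cells also use, was lower in heart (−1.18 and −0.96).

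**Figure D4:**
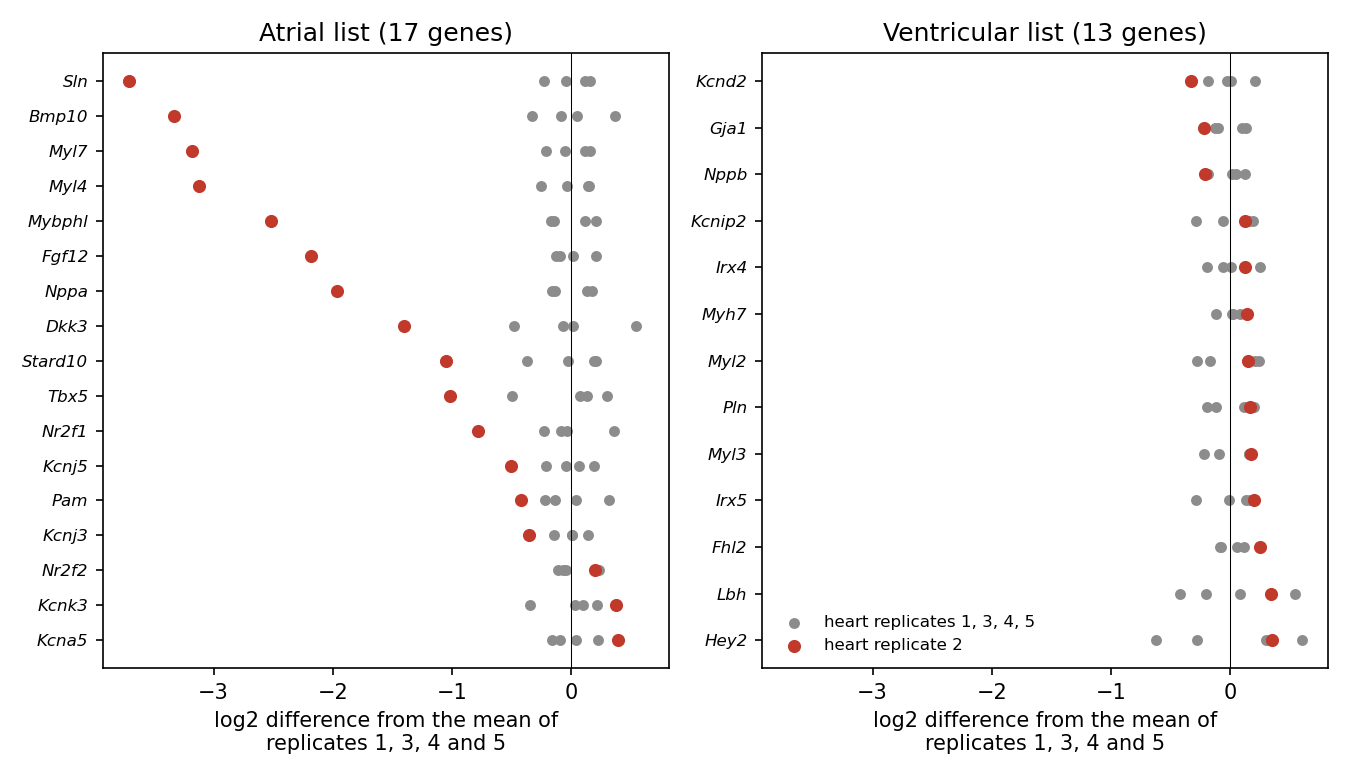
Log2 difference of each heart array from the mean of heart replicates 1, 3, 4 and 5, for 17 atrial genes (left) and 13 ventricular genes (right). Red points are replicate 2 and grey points the other 4. Replicate 2 lies farthest left for Sln, at −3.71, while most ventricular points lie near 0.

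The genes of fuel use and mitochondrial ATP production were higher in heart by amounts that differed by organ. Of 75 oxidative phosphorylation genes, 71 were higher in heart than in both organs, 44 at least 2-fold, with medians of 1.05 from kidney and 2.85 from lung. In 72 of the 75, lung was called below kidney, against 28% of all genes tested. Kidney tubules are themselves rich in mitochondria. Atp5g1, a subunit of the ATP synthase ring, had 2.02 and 5.16, and Ndufa5, Ndufb10 and Ndufa10 of complex I had smaller differences of 1.88, 1.59 and 1.51. Uqcrq of complex III had 1.54, but 0.07 (not called) as the mean of all its probe sets. The members not called were Cox7c, Ndufb4, Cox6a1 and Cox8a, and the probe sets of Cox7c and Ndufb4 were dim in all 3 organs, at most 336 and 126 on average. Cox7c was called higher with centred arrays (0.35) and with quantile normalization (0.33).

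The largest differences in that list were of muscle forms of subunits that have another form elsewhere. Cox6a2 read 47484, 42887, 35606, 36251 and 43130 in heart, 208.9 to 486.2 on the kidney arrays and 617.4 to 1237 on the lung arrays, a difference of 6.98 and 5.36 (SE 0.21, adjusted p = 1.5e-13 and 3.6e-12). Its other form, Cox6a1, differed by −0.58 from kidney and 0.66 from lung. Cox7a1 read 28862, 29666, 29070, 25763 and 30669 in heart, between 496.3 and 933.3 in kidney and between 161.4 and 244.7 in lung, a difference of 5.39 and 7.0. Cox7a2, the other form, differed by 0.72 and 1.92, but with quantile normalization by −0.08 from kidney, which was not called, and by 0.99 from lung. Cox8b read 32769, 28279, 27234, 26294 and 30583 in heart, against 13.5 to 379.2 in kidney and 118.2 to 360.6 in lung, while Cox8a differed by −0.85 and 1.81. So in all 3 pairs the muscle form exceeded both organs on every array and the other form did so in 1 pair, by less than 2-fold over kidney.

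The same held for other enzymes with a muscle form. Ckm had 7.82 and 6.55 and Ckb, the brain form of creatine kinase, −0.67 and 0.41. Ckmt2 read 40079, 42235, 38893, 38004 and 41207 in heart, 2.6 to 18.5 on the kidney arrays and 107.1 to 346.4 on the lung arrays, while the ubiquitous form Ckmt1 was lower than in both (−2.16 and −0.93). Pygm, muscle glycogen phosphorylase, had 7.04 and 5.33, and Pygl, the liver form, −2.0 and −1.90. Pgam2 had 3.46 and 6.41 and Pgam1 −2.0 and −0.41 (phosphoglycerate mutase), the second −0.17 and not called with centred arrays. Slc2a4, the insulin-responsive glucose transporter, had 3.43 and 4.69, whereas Slc2a1, the basal one, had −1.64 and 0.29, the second not called. Hk2 had 6.01 and 3.43 and Hk1 0.30 and 1.31 (hexokinases), where Hk1 lost its call with the letter block (0.14) or all 40 arrays in the fit. Pfkm had 3.60 and 4.13 and Pfkl 0.05 and 1.42 (phosphofructokinases). Slc25a4, which exchanges ADP for ATP, had 2.34 and 3.42 and Slc25a5 −0.59 and 1.20. Acacb, whose product checks fatty acid entry into mitochondria, had 2.63 and 4.36 and Acaca −0.77 and −0.94. Actn2 and its non-muscle relative Actn4 differed in the same manner, the second by −0.65 and −0.49 (−0.24 for the smaller, not called, with centred arrays). Lactate dehydrogenase was the exception with the probe sets used. Ldhb, the heart form, was not called against kidney (0.26, limma, adjusted p = 0.083), though it was against lung (3.40). Without heart replicate 3 or lung replicate 1 it was called higher than both (0.31 and 0.26). As the mean of all its probe sets Ldhb was also called higher than both (0.38). Ldha was called higher than both (0.76 and 2.00). The muscle form of carnitine palmitoyltransferase 1 and the common enolase were not analysed here, and the liver form Cpt1a was lower in heart (−2.06 and −0.70).

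Fatty acid uptake and oxidation genes were higher in 29 of 32, 18 at least 2-fold, with medians of 1.11 from kidney and 3.00 from lung. Fabp3, the heart fatty acid binding protein, read 55763, 55883, 47352, 49346 and 53966 in heart, between 3316 and 4711 in kidney and between 530.7 and 773.0 in lung. Lung was the lowest organ, and no arrays overlapped between organs. Fabp1, the liver form, was lower in heart than in both (−3.82 and −5.64). Plin5, of lipid droplets, had a smaller difference of 3.53, Pdk4, which turns pyruvate oxidation down, 2.68, Ucp3 2.59 and Lpl, lipoprotein lipase, 2.19. Pdk4 lost its call with the letter block (1.42). Hadhb and Etfdh, of beta-oxidation and its electron transfer, had 1.95 and 1.85. Cd36, the fatty acid transporter, had 4.24 from kidney but 0.48 from lung, with 13990 to 14763 in heart, against 555.1 to 1055 in kidney and 9186 to 11074 in lung, and with quantile normalization its difference from lung turned to −0.19, which was not called. Angptl4, an inhibitor of lipoprotein lipase, was lower in heart than in both (−2.27 and −1.61). Ppara, the receptor that drives this pathway in liver and heart, lay below kidney (−0.74) and above lung (4.72).

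Pyruvate, citric acid cycle and shuttle genes were higher in 26 of 30, 18 at least 2-fold, with medians of 1.18 and 3.17. Got1, an aminotransferase of the malate-aspartate shuttle, read 20836, 19635, 18419, 17432 and 19600 in heart, 2481 to 4540 on the kidney arrays and 187.5 to 309.5 on the lung arrays. Cs, citrate synthase, had 2.28 and 3.69, and Pdhx and Dlat of the pyruvate dehydrogenase complex had smaller differences of 2.02 and 1.86. Pcx, pyruvate carboxylase, which serves glucose production in kidney, was lower in heart (−3.69 and −0.89). Of 34 glucose and glycogen genes, 24 were higher, 15 at least 2-fold, and 3 were lower (Pgam1, Aldoc and Pygl). Eno3, the muscle enolase, led them with 6.64 and 6.07. Of 19 phosphate transfer and oxygen store genes, 11 were higher than in both organs and 1 lower, against 15.6% and 19.3% of all genes. Their medians were 0.58 from kidney and 1.79 from lung, and 8 of the 19 were called below kidney. Mb, myoglobin, was among the 11 and read 57773, 55719, 40393, 44462 and 52283 in heart, between 5.4 and 13.2 in kidney and between 335.0 and 1291 in lung. Gatm, which makes the precursor of creatine, had −6.05 from kidney and 0.21 from lung, with a heart mean of 140.

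Ketone body and branched-chain amino acid genes were nearly level between heart and kidney as a list. Their medians were 0.05 from kidney and 1.93 from lung. Of the 20 genes, 5 were higher than in both, against 15.6% of all genes tested. At least 2-fold higher was 1 of them, against 6.26% of all (Ppm1k, which activates branched-chain breakdown, 2.28 and 2.75). Oxct1, the first enzyme of ketone use, had 0.71 and 3.30 (0.07 from kidney, not called, with quantile normalization), and Bdh1, which joins ketone making and use, had −2.85 from kidney and 1.29 from lung. Mitochondrial biogenesis and dynamics genes were higher in 13 of 17, 8 at least 2-fold, with medians of 0.93 and 2.70. Ppargc1a, a coactivator of mitochondrial genes, read 3662, 8363, 5483, 8077 and 8261 in heart, against 1098 to 2946 in kidney and 138.1 to 348.2 in lung. Its heart arrays were widely spread but lay above all others. Perm1, Coq10a and Mfn2 (mitofusin 2) had smaller differences of 3.78, 3.23 and 2.87, while Tfam had 0.01 from kidney. Of 19 ribosomal protein genes, a comparison list, 7 were higher in heart (15.6% of all genes were), none 2-fold. With quantile normalization 0 were higher and 5 lower.

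**Figure D5:**
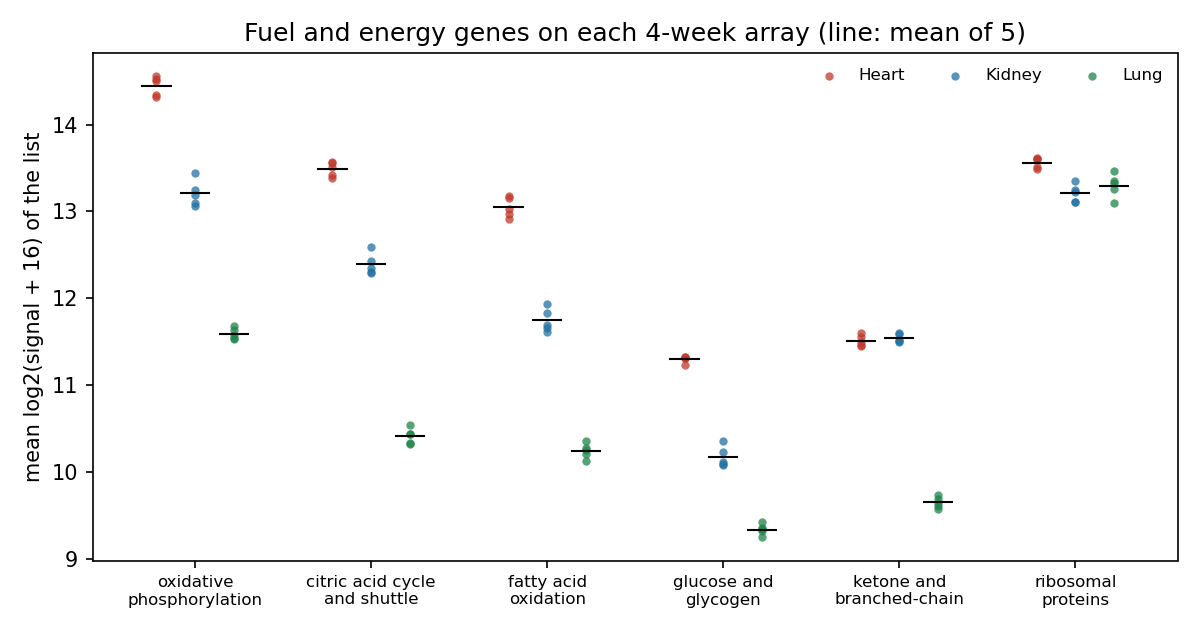
Mean log2(signal + 16) of 5 fuel and energy gene lists and of ribosomal protein genes on each array of heart, kidney and lung at 4 weeks. Each point is 1 array and each black line the mean of 5. Heart lies above kidney and lung for oxidative phosphorylation, while for ketone and branched-chain genes heart and kidney lie close, their median difference being 0.05.

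On the low side, the genes most reduced in heart were epithelial. All 34 epithelial genes tested were lower in heart than in both organs, 31 at least 2-fold, against 6.78% of all genes, with medians of −3.02 from kidney and −3.26 from lung. The list was made of genes known from the epithelia of both other organs. Like the other lists, it was chosen with earlier results of these data known, so its count is no independent test. Cdh1, E-cadherin, read 3.6, 5.7, 6.8, 65.7 and 37.5 in heart, 5066, 4845, 3570, 4105 and 4337 in kidney, and 6958, 7207, 7046, 6845 and 7110 in lung. The hearts were at background, so the differences of −7.03 and −7.72 (SE 0.32, adjusted p = 2.1e-11 and 7.5e-12) depend on the offset of 16. Epcam, an epithelial adhesion molecule, read 10.5, 9.7, 11, 9.7 and 9.0 in heart, 2610 to 3800 on the kidney arrays and 1183 to 1458 on the lung arrays. Muc1, an apical mucin, and Prss8, a protease that activates sodium channels, had −5.22 and −7.69, and −7.03 and −4.55. At the near end were F11r, a junction molecule also of endothelium (−0.38 and −1.29), Crb3 (−1.10 and −0.68) and Ddr1 (−1.45 and −0.92). F11r and Ddr1 lost their calls as means over probe sets (−0.08 and −0.31), F11r also with the letter block (−0.29), and Crb3 with centred arrays (−0.44).

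The other genes farthest down were also of epithelia. Napsa, an aspartic protease of proximal tubule and alveolar type 2 cells, averaged 107 in heart, 23565 in kidney and 9421 in lung. S100g, a calcium carrier of epithelia, read 2.7, 2.9, 5.9, 12.5 and 2.7 in heart, between 18493 and 25836 in kidney and between 881.9 and 1293 in lung. Npnt, nephronectin of basement membranes, averaged 81.0 in heart, 5723 in kidney and 18504 in lung, and Wfdc2 94.3, 6104 and 14791. Tspan8 (−5.61 and −7.41), Met, the hepatocyte growth factor receptor (−6.42 and −5.59), Mal2 (−5.42 and −7.95) and Wwc1 (−5.94 and −5.38) completed the 10. Genes of kidney tubule and of lung epithelium were mostly low in heart against their own organ only, with medians of −7.25 from kidney and −0.16 from lung for 17 kidney genes, and of −0.17 and −6.72 for 17 lung genes. Of these, Cdh16 and Lrp2 of the kidney list and Aqp5, Abca3 and Napsa of the lung list were lower in heart than in both. Of all genes tested, 19.3% were. Aqp5 was not called with all 40 arrays in the fit. Without kidney replicate 3 the count of genes lower than in both was 6 of 17 in the lung list rather than 3, and without heart replicate 3 it was 5. The summed signal of the lung list was 1830 to 5291 in heart, with replicate 3 the highest, 26403 to 35689 in kidney and 209700 to 329780 in lung.

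Cells of the heart other than muscle set it apart less. Of 28 endothelial genes, 2 were higher in heart than in both organs and 2 lower, both smaller shares than the 15.6% and 19.3% of all genes tested, with medians of 1.23 from kidney and −0.62 from lung. Heart was called above kidney in 23 of the 28 and below lung in 16, so it stood between them. Of all 14462 genes tested, 4340 were above kidney and 5785 below lung. The summed signal of the endothelial list was 93078 to 103840 in heart, against 42431 to 47428 in kidney and 103820 to 130440 in lung. The defining markers Pecam1, Cdh5, Tek and Kdr were all above kidney (by 1.51, 1.73, 0.81 and 1.21) and below lung (−1.51, −1.31, −1.53 and −0.71). Of the 2 exceptions, Tcf15, a helix-loop-helix factor of endothelial fatty acid uptake, read 1112, 979.0, 1184, 1063 and 896.3 in heart, 117.4 to 198.7 on the kidney arrays and 116.3 to 172.3 on the lung arrays. Fabp4, a fatty acid binding protein of capillary endothelium and fat cells, read 29740, 36950, 29686, 31355 and 34740 in heart, between 2393 and 7010 in kidney and between 1279 and 7576 in lung. Adipoq, an adipocyte hormone, read 148.3 to 749.1 in heart, and it was highest, at 1295 and 2580, on the same kidney and lung arrays as Fabp4. Plvap, of fenestrated capillaries, was lower in heart than in both (−2.69 and −3.29), as was Car4 (−0.99 and −1.54). Gpihbp1, which holds lipoprotein lipase on capillaries, had 2.81 from kidney and 0.06 from lung, the second not called. With centred arrays it was called higher than both (0.30 for the smaller difference).

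Fibroblast and matrix genes were higher in 6 of 24 and lower in 1, against 15.6% and 19.3% of all genes, with medians of 2.03 from kidney and −0.39 from lung. Dcn, decorin, read 28870, 23535, 19628, 25031 and 25620 in heart, against 2038 to 2480 in kidney and 4082 to 6671 in lung. Lum, lumican, a related proteoglycan, read 8139, 5675, 6180, 6412 and 6997 in heart, 212.6 to 358.3 on the kidney arrays and 597.5 to 856.6 on the lung arrays. The heart arrays of both were well clear of the other organs. Htra3, Smoc2, Fbln2 and Col5a1 were the others, with smaller differences of 2.86, 2.38, 1.57 and 0.98. Of the other defining markers, Col1a1 was above kidney (1.27) and below lung (−0.49), and Pdgfra was below lung (−2.52) and not called against kidney (0.31). Tcf21 was lower in heart (−0.91 and −2.78). With arrays centred on their medians 10 of the 24 were higher, and 5 of the 28 endothelial genes.

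Of 19 smooth muscle and pericyte genes, 7 were higher (15.6% of all genes were), 4 at least 2-fold, and Mylk was lower, though not with all 40 arrays in the fit. Rgs5, a regulator of G protein signals in pericytes, read 21960, 21581, 19316, 19383 and 20480 in heart, between 1878 and 2403 in kidney and between 600.1 and 813.7 in lung. Kcnj8, the potassium channel subunit of pericytes, read 1875, 1664, 1601, 1596 and 1861 in heart, against 197.6 to 267.1 in kidney and 178.2 to 220.6 in lung. No heart array of either gene overlapped with another organ. Acta2 and Vtn had smaller differences of 1.23 and 1.02, whereas Myh11 and Cnn1, of contractile smooth muscle, were not called higher, with −0.75 and −3.38 from lung.

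Of 22 macrophage genes, 7 were higher in heart than in both organs (15.6% of all genes were), 4 at least 2-fold. F13a1, coagulation factor XIII A of resident macrophages, read 2168, 2739, 2485, 2245 and 2667 in heart, 81.5 to 169.4 on the kidney arrays and 456.0 to 712.2 on the lung arrays. C1qa, a complement subunit made by macrophages, read 2790, 2828, 3084, 2801 and 3131 in heart, between 375.8 and 592.1 in kidney and between 896.7 and 1165 in lung. C1qc, Cd163, Folr2, Timd4 and Adgre1 were the others, with smaller differences of 1.85, 1.43, 0.78, 0.76 and 0.36. The Timd4 call was lost when any of 7 arrays was left out (heart replicates 1, 3, 4 and 5, lung replicates 1, 3 and 5), at 0.58 to 0.79, and also with an offset of 1, the letter block or the other ages in the fit. Mertk was lower in heart (−1.88 and −1.75), Cd68 lay between the organs, and the summed signal of the list was 27567 to 29838 in heart, against 8776 to 11258 in kidney and 60654 to 78811 in lung. The 15 lymphocyte genes had medians of 0.05 from kidney and −1.76 from lung.

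Other sources of RNA left smaller traces. Of 7 skeletal muscle genes that passed the filter, of 25 on the list, 4 were higher in heart (15.6% of all genes were). With no filter on dim genes, 7 of the 25 were. Genes that passed the filter through their heart mean had to be high there. The 4 were Acta1, Myl1, Myot and Mybpc2, and the cells they came from were not tested. The fast skeletal forms Myh4, Tnnt3 and Mylpf were under the filter level, with heart means of 22.6, 54.0 and 85.7. Of 12 adipocyte genes, Plin4, Fabp4 and Cidea were higher and Retn lower (15.6% and 19.3% of all genes were). Adipoq was not called against kidney (0.10). Plin4 read 3515, 5346, 4521, 5056 and 4924 in heart, against 172.1 to 354.9 in kidney and 195.5 to 422.7 in lung. Dbh, which makes noradrenaline, read 823.7, 1344, 1809, 1330 and 1011 in heart, 157.8 to 376.6 on the kidney arrays and 216.4 to 327.3 on the lung arrays, while Th, the enzyme before it, averaged 162, 153 and 161 and was not called. Of 36 cell cycle genes, 2 were higher (Cenpa and Cenpf) and 3 lower (Mcm7, Rrm2 and Aurka, the last not called without heart replicate 2 or 3, at −0.55 and −0.56). Mcm7 and Rrm2 were not called with centred arrays (−0.21 and −0.34), Mcm7 also not with the letter block and Rrm2 not as the mean of its probe sets. Both shares were below those of all genes, 15.6% and 19.3%. Without kidney replicate 5 the lower genes were 5, and with centred arrays 0. Cenpa, the centromere histone, read 1038, 1165, 1067, 1136 and 989.0 in heart, between 120.3 and 146.3 in kidney and between 175.9 and 338.8 in lung, whereas Mki67 had 0.06 and −0.33.

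The same comparison was made at 1 week, with 13 arrays and 14308 genes. 2 arrays went against their labels and were left out, which leaves 4 hearts, 5 kidneys and 4 lungs. The array labelled heart replicate 5 read 2396 for Myh6 and 27187 for Sftpc, where the other 4 hearts read 36521 to 44803 and 125.0 to 1073. The array labelled lung replicate 4 read 36022 for Myh6 and 1983 for Sftpc, where the other 4 lungs read 610.8 to 1868 and 23328 to 28922. With them as labelled 0 genes were higher in heart than in both organs, 793 at an unadjusted p under 0.05, 502 of them among the 905. Without them 1756 genes (12.3%) were higher, and 773 of the 905 (85.4%) were among these. Of the 905, 602 (66.5%) were at least 2-fold higher at both ages, which is 76.8% of the 784 so called at 1 week. Every called gene of the oxidative phosphorylation (71), fatty acid (29), transcription factor (19) and calcium (19) lists was also higher at 1 week.

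Where the differences from both organs changed between the ages, 406 of 14856 genes (2.73%) moved towards higher in heart at 4 weeks and 423 (2.85%) the other way. Among the 905 the counts were 184 and 4, but these genes were chosen on the same 4-week values. Rpl3l changed most among the top 20 genes. At 4 weeks it read 6025, 5933, 4268, 4445 and 5201 in heart, against 8.6 to 73.7 in kidney and 10 to 37.8 in lung, and at 1 week 348.4 to 521.2, 5.5 to 39.2 and 12.4 to 36.8. Its difference grew by 3.06 from kidney and 3.60 from lung (adjusted p = 1.5e-05 and 5.6e-06). Pygm grew by 3.12 and 2.02, with 9796 to 13681 in heart at 4 weeks and 4709 to 6162 at 1 week. Myh7 changed the other way (−3.03 and −2.21), with 1182 to 9007 in heart at 1 week. Kcnd2 grew by 5.08 and 2.14, and at 1 week lay below kidney (−1.01).

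Of the 22 macrophage genes, 8 moved towards higher in heart at 4 weeks, and of the 7 called at 4 weeks, F13a1, C1qa, C1qc, Folr2 and Adgre1 were not called at 1 week while Cd163 and Timd4 were not tested there. F13a1 at 1 week read 480.4 to 658.8 in heart, 199.3 to 299.7 on the kidney arrays and 452.2 to 627.8 on the lung arrays, so heart and lung overlapped then. Its difference grew by 3.13 from kidney and 2.05 from lung (adjusted p = 3.1e-10 and 1.5e-06). C1qa and C1qc grew by 2.05 and 1.45, and by 2.61 and 1.70. Smooth muscle and pericyte genes moved the same way in 5 of 19, against 2.73% of all genes tested. Rgs5 grew by 2.20 and 1.81, and the smaller changes of Acta2 and Myh11 were 1.64 and 1.15. Htra3 and Smoc2 of the fibroblast list were not above kidney at 1 week (−0.30 and −0.62), and grew by 5.59 and 3.00 from kidney.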

How the data were processed

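The deposited values are linear intensity signals, 1 per probe set and array, as the authors deposited them. The submitters' processing notes name RMA and Partek 6.6, but the values of every array had a 2% trimmed mean of 500.002 to 500.003, so how they were summarised is unsure. Of 45101 probe sets, 64 are controls, 34945 had 1 symbol in the platform annotation and 932 several (left out), giving 18193 genes. The probe set with the highest mean over all 40 arrays stood for a gene. An offset of 16 was added before log2, and genes were tested if their highest organ mean was at least 117.9, the 40th percentile over all signals. limma 3.58.1 (R 4.3.3) was fitted to the 15 arrays of 4 weeks with 1 mean per organ, and p-values were adjusted over all genes tested (Benjamini-Hochberg). Scripts were tested on simulated data, and figures used Python 3.11.15 and matplotlib 3.10.9. Arrays have no read depth, so their number limits the precision.

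Of 875 entries in 35 hand-written lists, 804 were matched and 754 tested. The members, lists and naming rule were chosen with earlier results of these data known. By the rule the text names the 20 highest and 10 lowest genes with no overlap between arrays, the members of short lists or the 8 highest and 4 lowest of longer ones, both forms of isoform pairs, and the organ markers. Other named genes were chosen after their values were seen. The 6 printed promoters were picked for their motifs.

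The alternatives were offsets, filters, quantile normalization, median centring, the mean over probe sets, a trended and robust variance, more arrays in the fit, blocks by replicate number, description number and letter case, and each array left out in turn. List counts without each array, and single probe sets, were added after seeing the data. The 8-week arrays were used only to choose probe sets and in 2 alternatives, the fits of all 40 arrays and of the 38 without the odd 1-week arrays. At 1 week, 2 arrays whose organ markers go against their labels were left out.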

Additional observations from a re-analysis of the deposited data

Results flagged for a closer look

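For the genes named above, the 5 arrays of each organ at 4 weeks were searched for an array far from the other 4, by Dixon's test on the log2 scale (a gap to the nearest array of over 0.71 of the group's range). It marked 64 of 681 groups of 5 arrays, and chance alone marks about 1 in 20. The values below are signals.

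Heart replicate 2 was below the other hearts for Nppa (10864.6), Myl7 (2442.6), Myl4 (2288.9), Sln (878.3), Mybphl (264.6), Cacna1g (305.5), Fgf12 (153.5) and Bmp10 (54.5), and above them for Ndufb10 (26816). Heart replicate 1 was low for Smpx (20870.7) and Slc2a4 (6329.5) and high for Nebl (11976.7), Plin5 (5285.3) and Acta2 (16884.1), and the other hearts read 9935.5 to 11335.7 for Slc2a4. Heart replicate 3 was high for the lung epithelial genes Scgb1a1 (1656.8) and Sftpc (1013.2), and for Pgam1 (1636.1) and Col1a1 (4015.5). Heart replicate 4 was high for the fat genes Ucp1 (342.5) and Adipoq (749.1), where the other hearts read 148.3 to 228.8 for Adipoq. Heart replicate 5 was low for Fkbp1b (91).

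Lung replicate 2 was below the other lungs for the muscle genes Ckmt2 (107.1), Myoz2 (277), Tnnt2 (759), Myl4 (1157.8), Hspb6 (358.5), Cox6a2 (617.4) and Mb (335), and for Slc2a1 (396.2) and Htra3 (201.4). The other lungs read 1427.2 to 1748.7 for Tnnt2 and 921.2 to 1290.8 for Mb. Lung replicate 4 was high for Adipoq (2579.7), Acaca (906.9), Pcx (1557.3), Cacna1g (135.4) and Rgs5 (813.7), and low for Kcnd2 (4.7), Adra1b (37.7), Ucp3 (109.9) and Cenpa (175.9). Lung replicate 1 was high for Nppa (1591.1) and Pkp2 (1322.7) and low for Tspan8 (4969.8) and Cdh5 (3115.7). Lung replicate 3 was low for Gata5 (143.9) and lung replicate 5 for Abcc9 (370.7).

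Kidney replicate 3 was below the other kidneys for Ttn (44.5), Srl (120.6), Hrc (157.1), Kcnj3 (54.1), Mb (5.4), Gpihbp1 (610.5), Retn (249), Dbh (157.8) and Th (67.9), and above them for S100g (25835.6). Kidney replicate 1 was high for Scgb1a1 (104), Kcnk3 (34.4), Pygl (1290.3), Pfkl (3126.2) and Coq10a (473.5). Kidney replicate 2 was low for Myl7 (9.3) and Wwc1 (2787.3) and high for Rrm2 (904.7), and kidney replicate 4 was high for Mybpc2 (24.3).

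Between the ages, the differences of heart from both organs changed, each at an adjusted p under 0.05 (limma, ages compared in 1 fit), for 40 of the named genes. The values here are the change in the log2 difference from 1 week to 4 weeks against the organ where it was smaller. Muscle genes that moved towards higher in heart at 4 weeks were Rpl3l (3.06), Kcnd2 (2.14), Pygm (2.02), Cacna1g (1.66), Hspb6 (1.59), Trim54 (1.501), Scn4b (1.39), Hrc (1.18), Kcnk3 (1.08), Tmem38a (0.91), Tpm2 (0.82), Pfkm (0.68) and, for fuel use, Ppm1k (1.18), Coq10a (0.92), Slc2a4 (0.85) and Slc25a4 (0.54). Genes of smooth muscle and pericytes that did so were Rgs5 (1.81), Acta2 (1.64), Myh11 (1.15) and Kcnj8 (0.95). Macrophage genes that did so were F13a1 (2.05), C1qc (1.70), C1qa (1.45), Folr2 (1.28) and Adgre1 (0.46), and fibroblast genes were Htra3 (1.47) and Smoc2 (0.61). Corin (1.35) and Cenpf (0.99) moved the same way. Genes that moved towards lower in heart were Fabp1 (−2.60), Myh7 (−2.21), Met (−1.73), Pygl (−1.58), Aldoc (−1.57), Angptl4 (−1.49), Wwc1 (−1.41), Aurka (−1.15), Abca3 (−0.80), Erbb2 (−0.74) and Cpt1a (−0.54).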

How the results depend on the processing

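The counts of genes called against kidney (8797), against lung (9354), in both directions against both organs (2263 higher, 2792 lower) and at least 2-fold (905 and 980) stayed within 1.5 times of these values under every alternative run. Over the alternatives other than leaving out an array, genes at least 2-fold higher were 780 (mean of a gene's probe sets) to 1041 (arrays centred on their median), and at least 2-fold lower 674 (offset of 64) to 1113 (offset of 1). Leaving out each array in turn gave 892 to 911 higher and 960 to 1010 lower at 2-fold, 8492 to 9149 against kidney and 8948 to 9678 against lung. It also gave 2174 to 2278 higher and 2657 to 2996 lower than both. Of the genes at least 2-fold higher in each such fit, 568 to 601 also differed between lung and kidney (599 with all arrays). Of the same genes, 757 to 782 were called higher at both ages (773 with all arrays). The count at both ages was 0 with the 1-week arrays as labelled. The smaller differences of Cox7a2 and Cd36 were 0 with quantile normalization, because the 2 differences then had opposite signs. Of the values of single named genes under all alternatives, 6277 kept direction and call, 59 (of 20 genes) lost the call, 10 gained it and 2 turned. Without heart replicate 2, Umod was called lower in heart (−0.78). Ketone genes higher in heart were 3 rather than 5 with quantile normalization. Arrays that share a replicate number in their titles did not deviate together (r of −0.20 to 0.12 over 15 pairs, median −0.003, and −0.23 to 0.31 over the 60 pairs of different number). The replicate block by that number gave 905 genes at least 2-fold higher and 980 lower, 2219 and 2751 at any size, 8651 against kidney and 9199 against lung. The letter case block gave the lowest counts against kidney (6739) and of genes higher than both (1861). Differences of genes that are dim in an organ depend on the offset.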

Other observations

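Of 14 epicardial and mesothelial genes, 1 was higher in heart than in both organs (Tbx18) and 4 were lower (15.6% and 19.3% of all genes were), with medians of 0.82 from kidney and −0.82 from lung. Of 8 genes of endocardium and valve, 2 were higher (Prg4 and Cytl1), against 15.6% of all genes. That count was 1 when any of 7 arrays was left out (heart replicates 1, 3, 4 and 5, lung replicates 1, 2 and 5). Antigen presentation genes were below lung in 14 of 15 and lower than both organs in 1 (H2-Aa), with medians of 0.26 from kidney and −1.17 from lung. Of 15 immediate early genes, 0 were called in the same direction against both organs, 7 were above kidney and 10 below lung. Of all 14462 genes tested, 4340 were above kidney and 5785 below lung. Of 10 genes of Schwann cells and neurons, 2 were higher and 2 lower in heart than in both, near the shares of all genes (15.6% and 19.3%).

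The hearts differed in how many genes lay at least 4-fold from the mean of the other 4 hearts. Replicate 1 had 65 such genes below and 8 above, replicate 2 had 27 and 8, replicate 3 had 11 and 5, replicate 4 had 8 and 8, and replicate 5 had 24 and 3. The labels do not say what the letter in the sample descriptions stands for.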
